A study of Homo sapiens with 14 samples.

Results

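The 33 genes described here encode enzymes and regulators of cholesterol and fatty acid synthesis that belong to the SREBP system. They were chosen by name for their place in the pathway, with earlier results of these data known, and each was matched by symbol to 1 of the 78686 gene identifiers quantified in every library. They comprise 7 enzymes of the mevalonate pathway, 11 enzymes that make squalene and convert it to cholesterol, 9 genes of fatty acid and glycerolipid synthesis, 5 regulators of SREBP, and the sterol carrier STARD4. All 33 passed the low-count filter in every fit, so each one was tested in each comparison.

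Every library came from HCT116, a human colorectal carcinoma line, with osTIR1(F74G), a plant receptor for degron ligands, and with mAID and Halo tags on SAF-A, the product of HNRNPU. The ligand 5-Ph-IAA directs the tagged protein to degradation. SAF-A binds RNA and chromatin in the nucleus. Total RNA was sequenced from 7 groups of 2 libraries, which fall into 2 sets: a time-course set of DMSO vehicle and of 5-Ph-IAA for 3 h or 12 h, and a Nutlin set of 5-Ph-IAA with Nutlin, Nutlin alone, 5-Ph-IAA alone and DMSO vehicle. Nutlin blocks MDM2 and thereby stabilises p53. The 3 treated groups of the Nutlin set are labelled 3 h, and where both agents were given the labels do not say to which of them the time belongs. No time is labelled for either DMSO group, and the 3 h and 12 h groups share the same DMSO libraries. Changes with 5-Ph-IAA and with time in culture can therefore not be told apart. Vehicle cells carry osTIR1(F74G) and the tagged SAF-A as well, and no unmodified cells were analysed here. The labels say neither whether the line is 1 clone nor whether replicates came from separate cultures, so the p-values rest on a spread between libraries that may be technical.

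Library totals were 29578916 to 35140464 expected counts in the time-course set, apart from 12 h replicate 2 with 3535163, and 12646787 to 17233327 in the Nutlin set. The 2 Nutlin libraries differed from each other more than the replicates of any other group, with a chi-square of 22.2 per degree of freedom across genes against 3.28 to 14.8 elsewhere, and each 12 h library was set apart on a principal component of its own. CDKN1A, a p53 target, had 467 and 427 normalised counts scaled to a common library size (CPM) with 5-Ph-IAA and Nutlin and 537 and 519 CPM with Nutlin, against 205 and 205 CPM with 5-Ph-IAA and 200 and 197 CPM with DMSO, so that it was higher in every Nutlin library. MDM2, another p53 target, had 394 and 382 CPM with both agents and 348 and 411 CPM with Nutlin, against 260 and 261 CPM with 5-Ph-IAA and 246 and 276 CPM with DMSO. HNRNPU mRNA had 509 and 544 CPM with DMSO, 524 and 547 CPM at 3 h and 671 and 636 CPM at 12 h. The degron acts on the protein, so this mRNA does not show whether SAF-A was lost. Of 8 colon epithelium markers, 7 passed the filter in the Nutlin set and 6 in the other set, EPCAM at 213 to 258 CPM throughout, and KRT18 and KRT19 rose at 12 h (0.34 and 0.20 on the log2 scale); VIL1 was at most 1.09 CPM in the Nutlin set, CDX1 did not pass, and no marker of blood or liver passed in either set. Of 3 endothelium and fibroblast markers COL1A1 passed, at 1.06 to 3.74 CPM.

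SREBPs are transcription factors held in the membrane of the endoplasmic reticulum by SCAP, their escort, and by INSIG1 and INSIG2, which retain SCAP when sterols are plentiful. When sterols run low, SCAP carries SREBPs to the Golgi, where proteases release the part that enters the nucleus and activates lipid synthesis genes. SREBF2 encodes the form known mainly for cholesterol genes and SREBF1 the forms known mainly for fatty acid genes, and INSIG1 is itself a target of the system it restrains.

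INSIG1, STARD4 and HMGCS1 were lower after 12 h of 5-Ph-IAA and higher with Nutlin. After 12 h of 5-Ph-IAA, 7 of the 33 genes fell and 3 rose, beside 7.97% of all genes tested that fell and 3.39% that rose, and those that fell were INSIG1, INSIG2, STARD4, MSMO1, IDI1, HMGCS1 and SC5D, whereas those that rose were FASN, SREBF1 and ACACA. With Nutlin, averaged over cells with and without 5-Ph-IAA, 8 rose and none fell, beside 0.956% and 0.487% of all genes. The 3 genes called in both make up 42.9% of those that fell at 12 h and 37.5% of those that rose with Nutlin. The same shares over all genes were not computed, so whether these shares are high is not known. The 12 h calls of all 3 were lost without 12 h replicate 1, and after GC correction INSIG1 (-0.75) kept its call while STARD4 (-0.23) and HMGCS1 (-0.33) did not. The test of the difference between the effect of Nutlin alone and that of 12 h of 5-Ph-IAA passed for 9 genes, each with the more positive value under Nutlin, beside 2.1% of all genes above and 0.809% below.

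**Figure D1:**
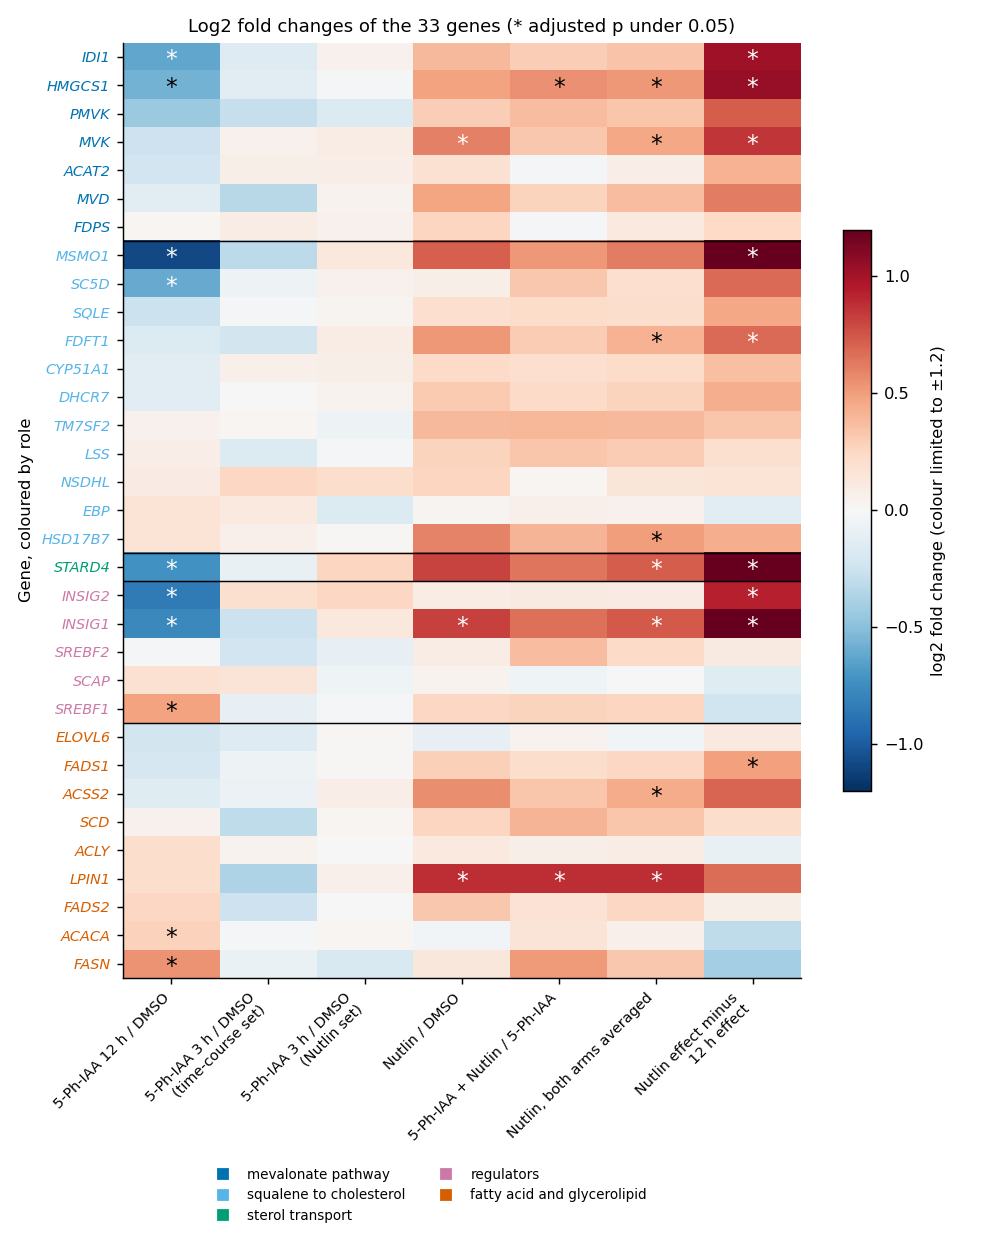
Log2 fold changes of the 33 genes (rows, grouped and coloured by role, and sorted within a role by the 12 h change) in 7 comparisons (columns), with red for higher and blue for lower in the group named first and an asterisk where the adjusted p was under 0.05. The first column is blue for most sterol genes and red for FASN, SREBF1 and ACACA, the 2 columns for 3 h of 5-Ph-IAA hold no asterisk, and 31 of the 33 cells are positive in the column of Nutlin averaged over both arms.

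Promoter sequences are shown for the 4 genes with the largest differences between the Nutlin and the 12 h effect, together with those of SREBF1, which rose at 12 h, and SREBF2, which did not pass in either direction. They are the 250 bases before a RefSeq gene start (GRCh38.p14), read on the gene's strand. The windows are chr4:165327419-165327668 for MSMO1 and chr7:155297628-155297877 for INSIG1 on the + strand, chr5:111512536-111512785 for STARD4 and chr5:43313413-43313662 for HMGCS1 on the - strand, chr17:17836987-17837236 for SREBF1 on the - strand and chr22:41832855-41833104 for SREBF2 on the + strand. Capitals mark CCAAT, the letters known to bind NF-Y, a partner of SREBP on sterol genes, or its reverse complement ATTGG, and in SREBF2 also TCACNCCAC, letters of the sterol regulatory element, in either orientation.
MSMO1: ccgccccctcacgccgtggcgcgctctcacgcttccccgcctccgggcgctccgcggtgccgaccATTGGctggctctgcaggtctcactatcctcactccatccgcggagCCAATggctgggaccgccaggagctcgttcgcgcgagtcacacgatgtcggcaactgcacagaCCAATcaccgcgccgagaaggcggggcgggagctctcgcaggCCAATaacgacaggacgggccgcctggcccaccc
INSIG1: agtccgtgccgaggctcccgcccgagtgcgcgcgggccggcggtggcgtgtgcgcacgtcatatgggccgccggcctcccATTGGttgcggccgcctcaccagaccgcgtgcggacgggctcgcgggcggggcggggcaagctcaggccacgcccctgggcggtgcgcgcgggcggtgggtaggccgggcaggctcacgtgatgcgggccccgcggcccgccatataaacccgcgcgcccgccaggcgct
STARD4: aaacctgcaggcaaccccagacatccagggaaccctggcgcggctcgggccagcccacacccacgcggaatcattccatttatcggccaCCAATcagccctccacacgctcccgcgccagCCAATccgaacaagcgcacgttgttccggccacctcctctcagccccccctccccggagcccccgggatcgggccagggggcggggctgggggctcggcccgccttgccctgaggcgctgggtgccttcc
HMGCS1: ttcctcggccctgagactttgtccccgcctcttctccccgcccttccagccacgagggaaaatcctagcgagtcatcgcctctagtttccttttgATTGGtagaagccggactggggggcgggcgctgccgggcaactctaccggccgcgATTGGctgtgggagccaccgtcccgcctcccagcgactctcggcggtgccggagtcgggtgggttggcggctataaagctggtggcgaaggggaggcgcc
SREBF1: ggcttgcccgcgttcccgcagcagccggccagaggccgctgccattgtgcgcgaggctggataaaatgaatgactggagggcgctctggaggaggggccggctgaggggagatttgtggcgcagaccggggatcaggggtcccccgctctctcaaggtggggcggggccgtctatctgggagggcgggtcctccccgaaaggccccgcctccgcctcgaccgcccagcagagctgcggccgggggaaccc
SREBF2: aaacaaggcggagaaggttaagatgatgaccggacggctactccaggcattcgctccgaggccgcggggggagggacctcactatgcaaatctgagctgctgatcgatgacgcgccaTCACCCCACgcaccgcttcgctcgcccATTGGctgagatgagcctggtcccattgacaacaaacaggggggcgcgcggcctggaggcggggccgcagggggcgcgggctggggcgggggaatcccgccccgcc
The MSMO1 window held 4 CCAAT boxes, STARD4 and HMGCS1 held 2 each, INSIG1 and SREBF2 held 1 each and SREBF1 none. Only the window shown was searched for SREBF1, and any other start of that gene was not. A second window of HMGCS1, for a gene start further downstream, held none.

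RefSeq's table gave 42 windows for 29 of the 33 genes, and ACAT2, FASN, FDFT1 and SQLE had no entry. CCAAT stood on either strand in 24 of the 42 windows (57.1%), against 32.0% of all 35116 windows of the same length. GGGCGG, the letters bound by Sp1, stood in 37 windows (88.1%) against 42.6% of all windows. TCACNCCAC stood only in the SREBF2 window (2.4%), against 0.9% of all windows, and CANNTG in 45.2% against 61.8%. Windows of 1 gene can overlap, and these shares were not tested.

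Per transcript length, the genes spanned a wide range of levels in vehicle cells. SCD, which desaturates stearate, and FDPS, which makes farnesyl diphosphate, had the highest TPM (transcript abundance scaled by length and depth), at 130 ± 13.9 and 124 ± 13.2 in DMSO cells of the Nutlin set (SD, n = 2), and their values overlapped. ACLY, which makes cytosolic acetyl-CoA from citrate, came next with 80.9 ± 9.64 TPM. LPIN1, PMVK and FADS2 were lowest, with 4.22 ± 0.127, 4.06 ± 0.573 and 3.90 ± 0.460 TPM. The same 3 genes were highest and the same 3 lowest in DMSO cells of the time-course set. In these bulk samples, fewer cells of a kind and less RNA per cell cannot be told apart.

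Of the 5 regulators, INSIG1 and INSIG2 fell and SREBF1 rose after 12 h of 5-Ph-IAA. INSIG1 (ENSG00000186480, GRCh38 chromosome 7, 155297776 to 155310235, + strand) had 45.9 and 44.2 CPM with DMSO, 41.5 and 33.9 CPM at 3 h and 25.2 and 28.8 CPM at 12 h. Both 12 h libraries lay below both 3 h and both DMSO libraries, and the log2 fold change at 12 h was -0.77 ± 0.14 (SE, edgeR adjusted p = 0.00365). INSIG2 had 14.9 and 19.4 CPM with DMSO, 19.5 and 19.7 CPM at 3 h and 9.75 and 9.04 CPM at 12 h, and fell by 0.84 ± 0.18 on the log2 scale (SE, edgeR adjusted p = 0.0116). SREBF1 was on the other side, with 53.3 and 49.3 CPM with DMSO, 48.4 and 47.6 CPM at 3 h and 67.2 and 78.1 CPM at 12 h, a rise of 0.48 ± 0.11 (SE, edgeR adjusted p = 0.0126). SREBF2 had a log2 fold change of -0.01 ± 0.13 and SCAP one of 0.19 ± 0.11 (SE), and neither passed.

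Of the mevalonate enzymes, 2 of 7 fell and none rose at 12 h. HMGCS1, which condenses acetyl-CoA with acetoacetyl-CoA to make HMG-CoA, had 75.4 and 66.7 CPM with DMSO, 69.6 and 59.7 CPM at 3 h and 44.9 and 53.7 CPM at 12 h (log2 -0.56 ± 0.12 SE, edgeR adjusted p = 0.0119). IDI1, which isomerises isopentenyl diphosphate, had 78.7 and 82.5 CPM with DMSO, 75.03 and 69.8 CPM at 3 h and 55.9 and 45.5 CPM at 12 h (log2 -0.63 ± 0.11 SE, edgeR adjusted p = 0.00345). In both genes the 12 h libraries lay below all 4 others. The other 5 enzymes, ACAT2, MVK, PMVK, MVD and FDPS, had log2 fold changes of -0.44 to 0.02 and did not pass.

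Among the 11 later enzymes of sterol synthesis, 2 fell at 12 h. MSMO1, a methyl sterol oxidase that removes methyl groups from the sterol ring, showed the largest change of all 33 genes. It had 64.6 and 72.5 CPM with DMSO, 57.97 and 51.97 CPM at 3 h and 33.8 and 29.3 CPM at 12 h, so that the values of the 3 groups did not overlap (12 h against DMSO, log2 -1.08 ± 0.12 SE, edgeR adjusted p = 0.000372). SC5D, sterol C5-desaturase, had 28.5 and 35.05 CPM with DMSO, 31.1 and 29.9 CPM at 3 h and 23.4 and 15.6 CPM at 12 h (log2 -0.60 ± 0.17 SE, edgeR adjusted p = 0.04). The lower of its 12 h values came from the shallow library. The other 9, which include squalene epoxidase SQLE at -0.26 and lanosterol demethylase CYP51A1 at -0.13, ranged from -0.26 to 0.17 and did not pass. STARD4, which carries cholesterol between membranes, had 35.5 and 34.4 CPM with DMSO, 31.6 and 34.2 CPM at 3 h and 20.6 and 22.5 CPM at 12 h (log2 -0.72 ± 0.13 SE, edgeR adjusted p = 0.00364).

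None of the 9 fatty acid genes fell at 12 h, and 2 rose. FASN, fatty acid synthase, had 182 and 195 CPM with DMSO, 174 and 184 CPM at 3 h and 262 and 290 CPM at 12 h, both 12 h values above the other 4 (log2 0.54 ± 0.08 SE, edgeR adjusted p = 0.00135). ACACA, the acetyl-CoA carboxylase that feeds it, had 218 and 243 CPM with DMSO, 220 and 234 CPM at 3 h and 266 and 296 CPM at 12 h (log2 0.28 ± 0.08 SE, edgeR adjusted p = 0.0493). The other 7 did not pass, with log2 fold changes from -0.22 in ELOVL6, a fatty acid elongase, to 0.25 in FADS2, a desaturase.

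Set side by side, the 18 sterol enzymes had a median log2 fold change of -0.15 at 12 h, with 4 lower and none higher, and the 9 fatty acid genes one of 0.21, with 2 higher and none lower, while the median over all 19049 genes tested was 0.00. Of the 33 genes, 21.2% were called lower and 9.09% higher, against 7.97% and 3.39% of all genes tested. Both 12 h libraries lay below both DMSO libraries in 17 of the 33, against 27.9% of all genes. They lay above them in 7 of the 33 (21.2%), near the 22.9% of all genes. The difference between sterol and fatty acid genes was not itself tested.

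The 12 h changes moved with GC content. Over the 33 genes, the GC percent of the longest transcript and the 12 h log2 fold change had a Pearson r of 0.66 and a Spearman rho of 0.61, a description across genes that share libraries, and over all 17075 genes with a GC value the rho was 0.34. The genes that fell include those of lowest GC, STARD4 at 34.2%, INSIG2 at 35.4%, MSMO1 at 38.1% and SC5D at 38.6%, and FASN at 65.3% and SREBF1 at 62.8% are among the highest. After a GC trend was subtracted from every library, 4 of the 10 calls held: MSMO1 (-0.75), INSIG1 (-0.75), IDI1 (-0.43) and FASN (0.42), beside 2.88% of all genes lower and 2.36% higher. The values of the other 6 were then -0.23 for STARD4, -0.40 for INSIG2, -0.29 for SC5D, -0.33 for HMGCS1, 0.34 for SREBF1 and 0.23 for ACACA. By role, the corrected medians were -0.26 for the 18 sterol enzymes and 0.10 for the fatty acid genes.

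**Figure D2:**
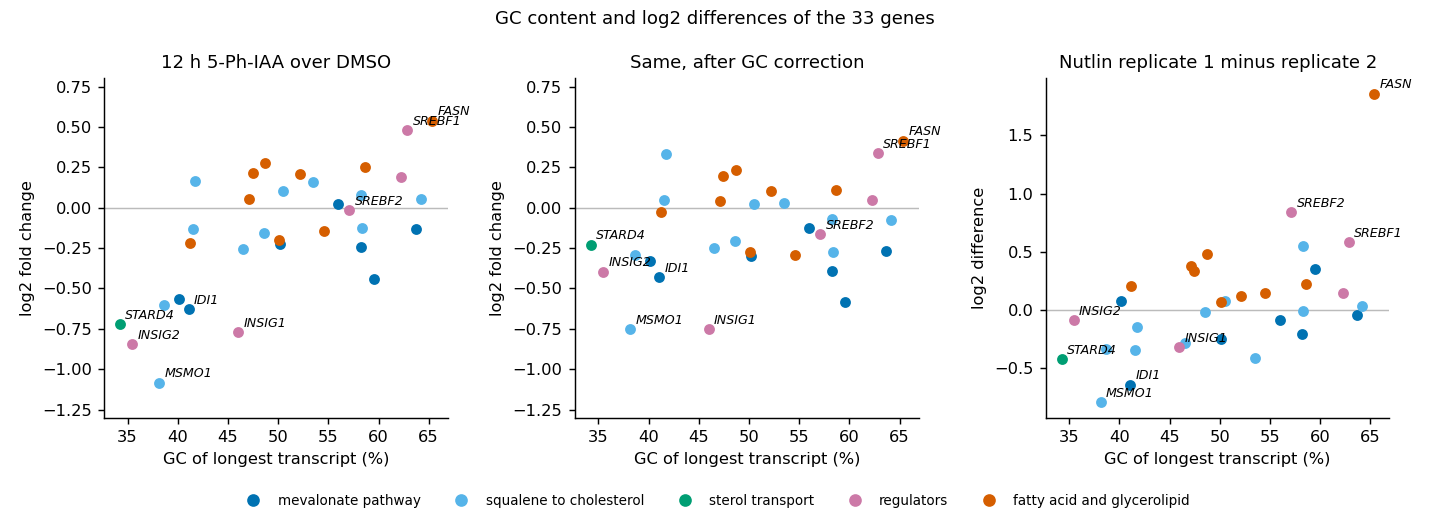
GC percent of the longest transcript (x axes) against the log2 fold change at 12 h of 5-Ph-IAA over DMSO (left), the same after GC correction (middle) and the log2 difference between the 2 Nutlin libraries (right), with 1 point per gene, coloured by role. STARD4, INSIG2 and MSMO1 lie at the low-GC end and below 0 on the left, STARD4 moves to -0.23 in the middle while INSIG1 stays at -0.75, and FASN stands at 1.86 on the right.

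Leaving out a library leaves its group with 1 library, which is then assumed to vary like the libraries of the other groups, so these values show how far a call rests on single libraries and are no support for it. Leaving out 12 h replicate 1 left 5 of the 10 calls and leaving out the shallow replicate 2 left 7, and MSMO1, IDI1 and FASN passed whichever library was left out. Without replicate 1 the calls of INSIG1 (-0.64), INSIG2 (-0.91), STARD4 (-0.63), HMGCS1 (-0.39) and ACACA (0.37) were lost, and without replicate 2 those of SREBF1 (0.39), SC5D (-0.44) and ACACA (0.20). SC5D (-0.43) and INSIG2 (-0.63) were also lost without DMSO replicate 2, and ACACA (0.21) without DMSO replicate 1.

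At 3 h none of these changes was called. None of the 33 genes passed against DMSO in the time-course set, where 0.0682% of all genes did. Of the 33, 5 had an unadjusted edgeR p under 0.05, beside 1228 of all 19049 genes tested. All 5 had lower values at 3 h: SCD, MVD, MSMO1, FDFT1 and LPIN1. SCD had 551 and 592 CPM with DMSO, 464 and 460 CPM at 3 h and 558 and 633 CPM at 12 h (3 h against DMSO, log2 -0.31 ± 0.07 SE, edgeR adjusted p = 0.28). SCD was called lower at 3 h with DESeq2, without the low-count filter, with the replicate number as a block and without DMSO replicate 1. In the Nutlin set, 5-Ph-IAA alone gave no call among the 33 or among all 17251 genes tested. Log2 fold changes of the 33 ran from -0.19 in FASN to 0.26 in STARD4. SCD had 966 and 1024 CPM with 5-Ph-IAA there, against 996 and 967 CPM with DMSO. None of the 33 had an unadjusted edgeR p under 0.05, beside 245 of all 17251 genes, and DESeq2 called 0 of the 33. The test of the difference between the 3 h effects of the 2 sets passed in none of the 33 genes and in 0.0164% of all genes. There 4 of the 33, INSIG1, MVD, FDFT1 and SCD, had an unadjusted edgeR p under 0.05, beside 740 of all 18290 genes. DESeq2 called 0 of the 33.

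Between 12 h and 3 h, 5 of the 33 genes were lower and 5 higher, against 5.79% and 2.35% of all genes. This comparison shares its 12 h libraries with the one above. INSIG2 (-1.04 ± 0.18), MSMO1 (-0.77 ± 0.12), STARD4 (-0.64 ± 0.13), INSIG1 (-0.52 ± 0.14) and IDI1 (-0.47 ± 0.11) were lower at 12 h (log2, SE). FASN (0.62 ± 0.08), LPIN1 (0.59 ± 0.16), SREBF1 (0.57 ± 0.11), SCD (0.36 ± 0.07) and ACACA (0.30 ± 0.08) were higher. LPIN1, a phosphatidate phosphatase of glycerolipid synthesis, had 17.6 and 16.8 CPM with DMSO, 13.7 and 12.9 CPM at 3 h and 21.4 and 17.5 CPM at 12 h. The fatty acid genes thus had 4 of 9 higher and none lower (median 0.30), and the 18 sterol enzymes 2 lower and none higher (median -0.16). MSMO1, SREBF1 and FASN passed whichever library was left out, and 5 calls, those of ACACA, IDI1, INSIG1, LPIN1 and STARD4, were lost after GC correction, which called 1.92% of all genes higher and 2.92% lower.

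Genes of both branches rose with Nutlin, those called in the fatty acid and glycerolipid list being LPIN1 and, averaged over both arms, ACSS2. FASN, ACACA, ACLY and SCD did not pass. Of the 33 genes, LPIN1, INSIG1 and MVK rose in cells without 5-Ph-IAA, beside 0.394% of all genes called higher and 0.0696% lower, and LPIN1 and HMGCS1 rose in cells with 5-Ph-IAA, beside 0.342% higher and 0.0464% lower. The direction was shared far more widely than the calls: both Nutlin libraries lay above both DMSO libraries in 22 of the 33 genes and below them in none, against 18.3% and 17.8% of all genes, and with 5-Ph-IAA in both arms 26 lay above and none below, against 23.1% and 23.3%. Averaged over both arms, 8 of the 33 rose and none fell, where 0.956% of all genes rose and 0.487% fell.

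INSIG1 had 151 and 130 CPM with 5-Ph-IAA and Nutlin and 127 and 159 CPM with Nutlin, against 90.4 and 87.3 CPM with 5-Ph-IAA and 79.7 and 82.7 CPM with DMSO. Every Nutlin library lay above every library without it, and the averaged log2 fold change was 0.74 ± 0.09 (SE, edgeR adjusted p = 0.00195). LPIN1 had 48.7 and 50.9 CPM with 5-Ph-IAA and Nutlin and 53.5 and 42.3 CPM with Nutlin, against 28.7 and 25.0 CPM with 5-Ph-IAA and 28.03 and 23.5 CPM with DMSO. It showed the largest averaged rise of the 33, at 0.89 ± 0.10 (SE, edgeR adjusted p = 0.00174), again without overlap. STARD4 had 61.7 and 60.2 CPM with 5-Ph-IAA and Nutlin and 48.9 and 65.6 CPM with Nutlin, against 35.5 and 42.6 CPM with 5-Ph-IAA and 31.1 and 34.2 CPM with DMSO (averaged log2 0.73 ± 0.10 SE, edgeR adjusted p = 0.00699).

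Of the mevalonate enzymes, HMGCS1 and mevalonate kinase MVK rose. HMGCS1 had 98.5 and 92.1 CPM with 5-Ph-IAA and Nutlin and 94.8 and 89.9 CPM with Nutlin, against 67.2 and 62.6 CPM with 5-Ph-IAA and 62.7 and 69.3 CPM with DMSO (averaged log2 0.52 ± 0.07 SE, edgeR adjusted p = 0.00439). MVK had 43.7 and 40.9 CPM with 5-Ph-IAA and Nutlin and 44.8 and 51.8 CPM with Nutlin, against 33.3 and 34.2 CPM with 5-Ph-IAA and 31.9 and 31.5 CPM with DMSO (averaged log2 0.47 ± 0.08 SE, edgeR adjusted p = 0.0153). MVK overlaps MMAB on the opposite strand, and the sources used here do not say whether the counting used strand, so reads of the 2 genes may be mixed. The same holds for ACAT2 with TCP1, and TM7SF2 and VPS51 overlap on the same strand.

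Later in the pathway, squalene synthase FDFT1 had 144 and 142 CPM with 5-Ph-IAA and Nutlin and 155 and 156 CPM with Nutlin, against 113 and 118 CPM with 5-Ph-IAA and 118 and 99.3 CPM with DMSO (averaged log2 0.41 ± 0.07 SE, edgeR adjusted p = 0.0185). HSD17B7, a sterol ketoreductase, had 20.2 and 19.5 CPM with 5-Ph-IAA and Nutlin and 21.2 and 23.5 CPM with Nutlin, against 15.04 and 14.9 CPM with 5-Ph-IAA and 14.2 and 15.4 CPM with DMSO (averaged log2 0.50 ± 0.09 SE, edgeR adjusted p = 0.0215). HSD17B7 has 3 annotated pseudogenes with 68.3 counts per library between them against 296 for the gene, and its value is uncertain for that reason. ACSS2, which makes acetyl-CoA from acetate, had 42.3 and 45.2 CPM with 5-Ph-IAA and Nutlin and 50.9 and 46.1 CPM with Nutlin, against 32.3 and 37.4 CPM with 5-Ph-IAA and 34.6 and 31.3 CPM with DMSO (averaged log2 0.44 ± 0.08 SE, edgeR adjusted p = 0.0288). In all 3 genes the Nutlin libraries lay above the others without overlap.

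**Figure D3:**
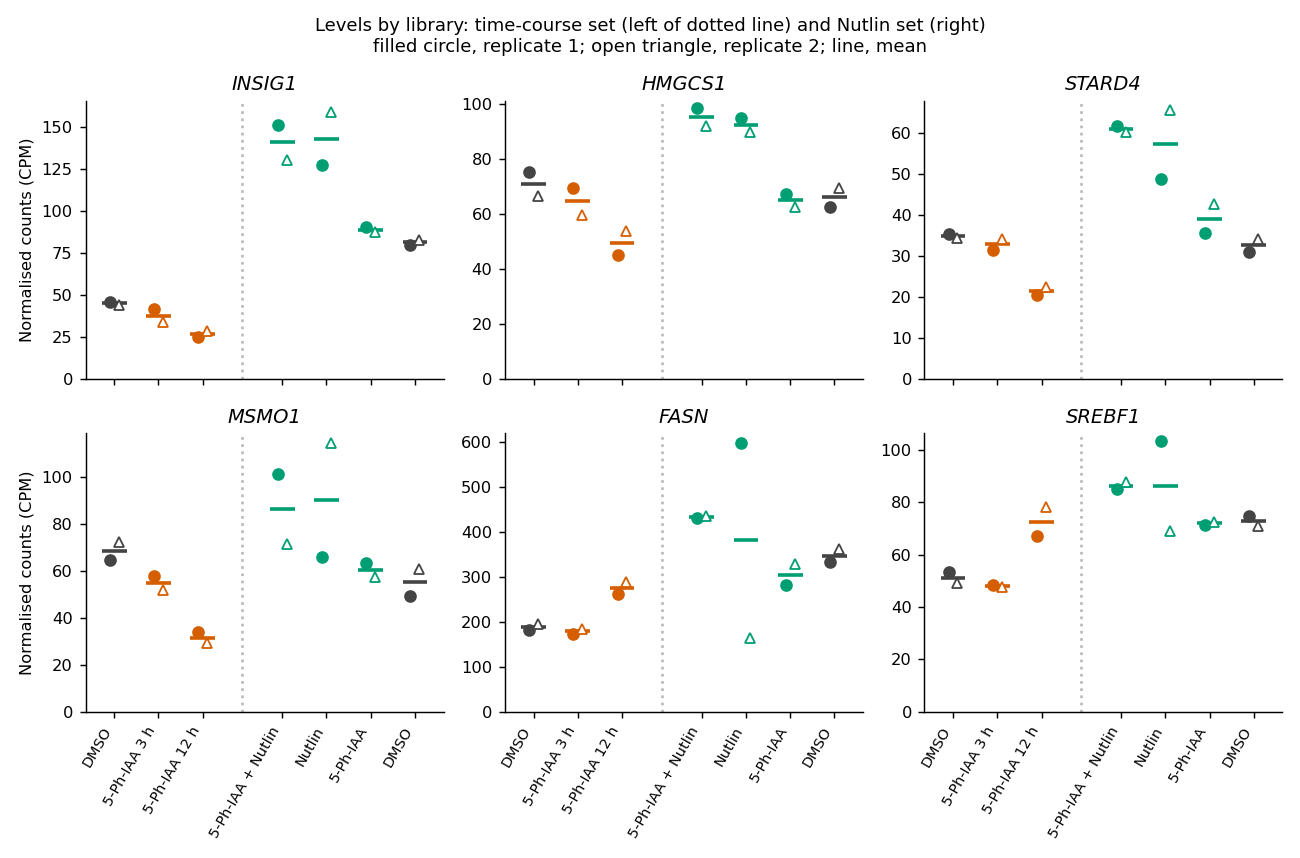
Normalised counts (CPM, y axes from 0) of INSIG1, HMGCS1, STARD4, MSMO1, FASN and SREBF1 in each of the 14 libraries, with the time-course set left of the dotted line and the Nutlin set right of it, replicate 1 as filled circles, replicate 2 as open triangles and lines at group means. INSIG1, HMGCS1 and STARD4 are lowest at 12 h of 5-Ph-IAA within the left set and highest in the Nutlin groups within the right set, and FASN in Nutlin cells shows 598 CPM in replicate 1 and 165 CPM in replicate 2.

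The averaged effect had a median of 0.32 over the 18 sterol enzymes, of 0.25 over the 9 fatty acid genes and of 0.00 over all genes tested. All 18 sterol enzymes and 8 of the 9 fatty acid genes had positive values, ELOVL6 being the exception at -0.03. All 4 Nutlin libraries lay above all 4 without Nutlin in 16 of the 33 genes and below them in none, against 4.67% and 4.70% of all genes. After GC correction 10 genes rose, beside 1.32% of all genes higher and 0.963% lower, and the medians were 0.30 for the sterol enzymes and 0.24 for the fatty acid genes.

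The 2 Nutlin libraries lay far apart in some of the 33 genes. FASN had 432 and 436 CPM with 5-Ph-IAA and Nutlin and 598 and 165 CPM with Nutlin, against 282 and 328 CPM with 5-Ph-IAA and 332 and 362 CPM with DMSO, so that the Nutlin libraries lay on either side of every other library and the averaged change of 0.32 ± 0.29 did not pass (SE, edgeR adjusted p = 0.717). MSMO1 had 101 and 71.7 CPM with 5-Ph-IAA and Nutlin and 66.06 and 114 CPM with Nutlin, against 63.5 and 57.2 CPM with 5-Ph-IAA and 49.4 and 60.99 CPM with DMSO, all 4 Nutlin libraries above the rest, at 0.62 ± 0.17 (SE, edgeR adjusted p = 0.142). Over the 33 genes, the log2 difference between Nutlin replicate 1 and replicate 2 had a Pearson r of 0.56 with GC percent, against 0.24 over all genes, and the part of GC content in that difference was not tested. Without Nutlin replicate 1 the averaged change of FASN was negative, and without Nutlin replicate 2 it was positive. Leaving out a library of another group left 2 to 4 of the 8 calls, and LPIN1 and INSIG1 passed whichever library was left out. In cells without 5-Ph-IAA, none of the 33 passed without either DMSO library, and in cells with 5-Ph-IAA none passed without any one of the 4 libraries compared.

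No effect of 5-Ph-IAA on the Nutlin response of these genes was detectable with 2 libraries a group. Nutlin with 5-Ph-IAA against Nutlin alone, and the interaction of the 2 agents, gave no edgeR call among the 33 genes or among all 17251. FDPS was the 1 gene of the 33 with an unadjusted edgeR p under 0.05 in each, beside 1404 and 623 of all genes. DESeq2 called 0 of the 33 in both. The interaction was -0.15 ± 0.17 for INSIG1, 0.07 ± 0.14 for HMGCS1, -0.17 ± 0.21 for STARD4 and 0.00 ± 0.20 for LPIN1 (log2, SE). These errors leave room for differences of either sign. Without Nutlin replicate 1, ACACA, FASN, SCD and SREBF2 passed the interaction, and genes passed the comparison with Nutlin alone in both directions. Without Nutlin replicate 2, FASN passed the comparison with Nutlin alone, lower with both agents. In each case the Nutlin group is then a single library, of a pair that differed more than any other, with the spread taken from the other groups.

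The Nutlin and 12 h effects were compared in 1 fit of all 14 libraries, each against the vehicle of its own set, so that they shared no library. The 2 effects differ in agent, in labelled time (3 h for Nutlin) and in set, and these cannot be told apart in this comparison. The Nutlin effect exceeded the 12 h effect in 9 of the 33 genes and was below it in none, where 2.1% of all 18290 genes were called above and 0.809% below. The log2 difference was 1.80 ± 0.30 for MSMO1, 1.59 ± 0.18 for INSIG1, 1.54 ± 0.20 for STARD4, 1.05 ± 0.16 for HMGCS1 and 1.02 ± 0.22 for IDI1 (SE). It was 0.93 ± 0.23 for INSIG2, 0.85 ± 0.18 for MVK, 0.68 ± 0.13 for FDFT1 and 0.49 ± 0.12 for FADS1, a delta-5 desaturase whose gene overlaps FADS2 on the opposite strand (SE). Adjusted p-values of the 9 ran from 0.000447 for INSIG1 to 0.0499 for FADS1 (edgeR). Of these 9, only INSIG1 and MVK were called with Nutlin alone, and MVK, FDFT1 and FADS1 were not called at 12 h. IDI1 had 87.5 and 137 CPM with Nutlin, against 80.97 and 90.6 CPM with DMSO of that set, so its values overlapped. For INSIG2 the change with Nutlin alone was 0.08 ± 0.15 and did not pass (SE).

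**Figure D4:**
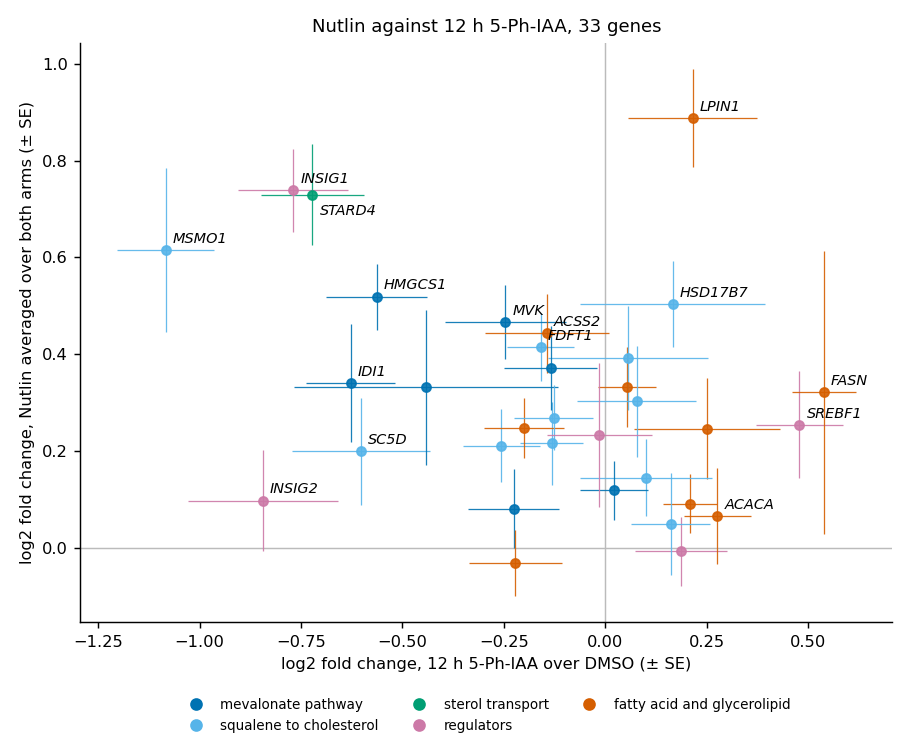
Log2 fold change with 12 h of 5-Ph-IAA over DMSO (x axis) against that with Nutlin averaged over both arms (y axis), with 1 point per gene, bars of 1 SE and colours by role; genes called in either comparison are named. MSMO1, INSIG1, STARD4, HMGCS1 and IDI1 lie in the upper left, below 0 at 12 h and above 0 with Nutlin, and FASN, SREBF1 and LPIN1 lie in the upper right.

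By role, the difference had a median of 0.45 over the 18 sterol enzymes, 5 of them called, and of 0.12 over the 9 fatty acid genes, 1 of them called, against 0.03 over all genes. FASN (-0.40 ± 0.49), ACACA (-0.31 ± 0.18) and SREBF1 (-0.24 ± 0.20) had negative values that did not pass (SE). Over the 33 genes, the effect of Nutlin averaged over both arms and the 12 h effect had a Pearson r of -0.32 and a Spearman rho of -0.27, across genes that share libraries, against -0.01 and 0.04 over all genes. After GC correction 11 genes passed, all of them higher under Nutlin, beside 2.02% of all genes above and 1.21% below. INSIG2 (0.57) lost its call, and MVD (0.76), DHCR7 (0.59) and ACSS2 (0.84) were called in addition. The corrected medians were 0.49 for the sterol enzymes and 0.22 for the fatty acid genes. INSIG1 and STARD4 passed whichever library was left out. Without Nutlin replicate 1 the calls went in both directions, and without 12 h replicate 1 most of the 9 calls were lost. Without 12 h replicate 2 or DMSO replicate 2 of the time-course set 5 passed, and 4 passed without either DMSO library of the Nutlin set.

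Other genes of the pathway, from lists drawn up with earlier results of these data known, moved in both directions at 12 h, where 7.97% of all genes were lower and 3.39% higher. Of 7 genes that process or retain SREBP, MBTPS2, the site-2 protease that cuts SREBP, fell at 12 h (-0.79 ± 0.21) and no other passed. Of 13 further SREBP-linked genes, 3 fell and none rose: the acyl-CoA synthetase ACSL3 (-0.50 ± 0.08), the pantothenate kinase PANK3 (-0.44 ± 0.08) and the acyltransferase GPAM (-0.42 ± 0.11). Cholesterol handling genes were split, with lysosomal lipase LIPA (-0.67 ± 0.11), the esterifying enzyme SOAT1 (-0.61 ± 0.11) and the lysosomal transporter NPC1 (-0.45 ± 0.13) lower, and the receptor SCARB1 (0.56 ± 0.15) and the sterol-binding protein OSBP (0.41 ± 0.11) higher. Of 7 genes in other isoprenoid branches, GGPS1 (-0.77 ± 0.21) and COQ2 (-0.59 ± 0.14) fell, and none of 7 genes of LXR and its targets passed (log2 at 12 h over DMSO, SE). How far calls in these lists depend on GC content or on single libraries was not examined.

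With Nutlin averaged over both arms, 1 gene of these lists passed, MYLIP, an LXR target that directs lipoprotein receptors to degradation, which fell by 0.51 ± 0.10 on the log2 scale (SE, edgeR adjusted p = 0.0424). It was 1 of 7 genes of LXR and its targets, where 0.956% of all genes were called higher and 0.487% lower. The medians were -0.05 over the SREBP processing genes, 0.05 over the further SREBP-linked genes, 0.10 over LXR genes, 0.10 over cholesterol handling and -0.11 over other isoprenoid branches. The Nutlin effect exceeded the 12 h effect for LIPA (0.85 ± 0.15), COQ2 (0.72 ± 0.18), ACSL3 (0.68 ± 0.15) and ERLIN2, an endoplasmic reticulum protein that binds SCAP and INSIG (0.61 ± 0.15; log2, SE). These were 1 of 7 cholesterol handling genes, 1 of 7 in other isoprenoid branches, 1 of 13 further SREBP-linked genes and 1 of 7 processing genes. Of all genes, 2.1% were called above and 0.809% below.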

How the data were processed

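RNA of 14 libraries was sequenced in total-RNA libraries of a stranded kit, per the labels' protocols. The deposited tables give RSEM expected counts and TPM per gene; STAR 2.7.10b, RSEM, DESeq2 1.48.1 and GRCh38 are named without roles in the submitters' processing notes. The annotation release and the strand setting of the counting are not given in the sources used here. Each gene was matched by symbol to the identifier in the deposited tables, and gene positions are those of GENCODE release 29. The members and all gene lists were chosen with earlier results of these data known.

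The authors' expected counts were rounded to whole numbers and tested with edgeR 4.0.16 (R 4.3.3; TMM; filterByExpr at 10 counts per library and 15 in all; quasi-likelihood F test, Benjamini-Hochberg adjustment over all genes tested, threshold 0.05). The time-course set (6 libraries, 19049 genes), the Nutlin set (8 libraries, 17251 genes) and all 14 libraries (18290 genes) were fitted separately, the last only for comparisons between sets. CPM are counts over the TMM-scaled library size, and the authors' TPM, deposited per gene, were used only to rank levels between genes. All 33 genes may be named. Values per library are given for genes called within a set, in that set, up to 12 a comparison by adjusted p, and for INSIG1. FASN, MSMO1 and IDI1 in the Nutlin set and SCD at 3 h in both sets were added after their values were seen. FADS1 was called only in the comparison between sets, and its values per library are not given.

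Alternatives were RLE size factors, DESeq2 1.42.0, no filter, the replicate number as a block, the compared groups alone, all 14 libraries in one fit, thinning to the shallowest library (3535135 counts), leaving out each library, and, chosen after seeing the data, a lowess GC correction (span 0.3) over the 89.6% to 91.5% of tested genes with a GC value, all 33 among them. Replicate 1 minus replicate 2 correlated between groups at -0.09 to 0.05, so shared numbers were not taken as pairs. The fitting code was tested on simulated data.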

Additional observations from a re-analysis of the deposited data

How the results depend on the processing

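With 2 libraries a group, single libraries set many of these calls, and 12 h replicate 2 is shallow. The 42 called pairs of gene and comparison kept their direction in all 542 alternative values, and 150 of these values no longer passed; 14 pairs lost the call under GC correction and 32 in at least 1 fit without a library. The cause of these losses was not tested. The pairs were picked because they were called, and the alternatives refit the same libraries, so a kept direction is no support for them.

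Shares of all genes called are not given for most alternative fits of this section. Counts in them, also with 1 library left out, describe the fits and no property of the 33 genes. Counts of the 33 genes called moved by over 1.5 times as follows. GC correction gave 4 for 12 h against DMSO (10), 5 for 12 h against 3 h (10) and 6 for Nutlin against DMSO (3). DESeq2 gave 1 for 3 h against DMSO (0), 7 for Nutlin against DMSO and 4 for Nutlin with 5-Ph-IAA against 5-Ph-IAA (2). Without the low-count filter they were 1, 10 and 7 in these 3 comparisons, and 13 for Nutlin averaged over both arms (8). The compared groups alone gave 0 for Nutlin against DMSO, 14 for Nutlin with 5-Ph-IAA against 5-Ph-IAA and 3 for the Nutlin minus the 12 h effect (9). All 14 libraries in one fit gave 6 for 12 h against 3 h and 5 for Nutlin against DMSO, and RLE size factors gave 1 for Nutlin with 5-Ph-IAA against 5-Ph-IAA.

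With the replicate number as a block, 1 gene was called at 3 h against DMSO and 1 for Nutlin with 5-Ph-IAA against 5-Ph-IAA; the counts were 11 at 12 h against DMSO, 11 at 12 h against 3 h, 3 for Nutlin against DMSO, 7 for Nutlin averaged, 6 for the difference between effects and 0 in the other comparisons. Same-numbered libraries share only a number.

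Leaving out 1 library, which leaves its group with 1 library assumed to vary like the other groups, gave 5 to 10 calls at 12 h against DMSO, 0 to 1 at 3 h, 6 to 8 at 12 h against 3 h, 0 to 18 for Nutlin against DMSO, 0 for Nutlin with 5-Ph-IAA against 5-Ph-IAA, 2 to 19 for Nutlin averaged, 0 to 7 for Nutlin with 5-Ph-IAA against Nutlin, 0 to 4 for the interaction and 2 to 19 for the difference between effects. INSIG1, not called there, ran from -0.18 to 0.15 for Nutlin with 5-Ph-IAA against Nutlin and from -0.31 to 0.015 for the interaction (log2).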
